A study of Mus musculus with 23 samples.

Results

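Stem and mature luminal cells of the mouse mammary gland at day 10 of pregnancy (D10) were compared with the same cell types of 9-week virgins (V9wk). The differences were taken from 8 of the 23 Affymetrix arrays of the series, and the errors and p-values from a fit over 14 arrays in 7 groups that holds these 8. They were 2 D10 stem, 2 D10 mature luminal, 2 V9wk stem and 2 V9wk mature luminal arrays, and they were chosen by the stage, cell type and replicate number in their titles. Each D10 array was set against the V9wk array of the same cell type and the same number, which gave 4 matched differences per gene. All mice were female and of the inbred strain C57BL/6, and the labels name no transgene and no treatment. The other 15 arrays held luminal progenitors of these stages, 3-week virgins, days 16 and 19 of pregnancy and retired breeders. The labels give neither the age of the pregnant mice nor the surface markers used to purify the cells. They do not say whether the arrays of a group came from separate animals or from pools, so the p-values below speak for the spread among the 14 arrays of the fit, and that spread may be technical. Of those 14, 6 were 3-week virgin stem and progenitor arrays and V9wk progenitor arrays, and their spread is assumed to be that of the other groups. The labels also do not say whether stem and mature luminal arrays of the same stage and number came from the same glands. Apart from the replicate number the fit treats these arrays as independent. If they shared glands, the 4 differences of a gene would not be 4 independent comparisons.

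The ducts of a virgin gland have an inner layer of luminal cells and an outer layer of basal cells, which include the stem cells and the contractile myoepithelium. In early pregnancy progesterone and prolactin drive side branching and the growth of alveoli. Luminal cells that carry oestrogen and progesterone receptors pass the hormonal signal on through secreted factors, and prolactin acts through JAK2, STAT5 and ELF5 to switch on milk protein genes well before birth.

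A level below is the deposited log2 value of a gene on an array, and a difference is D10 minus V9wk in log2 units, so that 1 unit stands for a 2-fold change. Array medians lay between 4.57 and 4.90 at D10 and between 4.63 and 5.19 in V9wk, and levels near or under them can include background. A gene is said to have risen or fallen if the average of its 4 differences passed limma's test, with p adjusted by Benjamini and Hochberg's method over the 15378 genes tested and a threshold of 0.05. Errors after ± are limma standard errors. The 3′ probe set of Gapdh was higher than its 5′ probe set by 1.03 to 1.43 at D10 and 1.30 to 1.59 in V9wk, against 0.87 to 5.16 over all 23 arrays. For statements on left-out arrays, S and L stand for stem and mature luminal cells and the digit for the replicate number, as in D10-S1.

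The cell type labels were checked against 6 basal and 6 mature luminal markers. The basal markers, among them Krt5, Krt14 and Trp63, averaged 12.45 and 12.33 on the D10 stem arrays and 11.30 and 12.46 on the V9wk stem arrays. On mature luminal arrays they averaged 8.48 and 9.38 at D10 and 9.86 and 7.24 in V9wk. All stem arrays stood above all mature luminal arrays, and V9wk mature luminal replicate 1 still had Krt5 at 11.81 and Trp63 at 11.54. The mature luminal markers averaged 11.00 and 11.37 on the D10 mature luminal arrays and 12.47 and 12.66 on the V9wk ones. On stem arrays they averaged 9.88 and 10.24 at D10 and 12.05 and 10.89 in V9wk. Stem preparations of both stages thus held luminal transcripts, with Krt8 between 12.68 and 13.55, and the luminal set was lower at D10 than in V9wk in both cell types. That lower mean came with Esr1, Pgr and Foxa1, which make up 3 of its 6 genes and are described below, since Krt8 and Krt18 differed by 0.09 and -0.01 on average. The share of each stem result that comes from luminal transcripts was not tested. Luminal progenitor markers, 4 genes with Kit and Elf5 among them, averaged 11.41 and 11.54 on D10 mature luminal arrays, against 8.9 and 9.56 in V9wk. On stem arrays they averaged 9.54 and 9.78 at D10 and 9.48 and 7.98 in V9wk. On luminal progenitor arrays they averaged 10.91 at D10 and 10.03 and 11.35 in V9wk. The part of this rise in the mature luminal results below was not tested. In such bulk samples fewer cells of a type and less RNA per cell cannot be told apart.

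**Figure D1:**
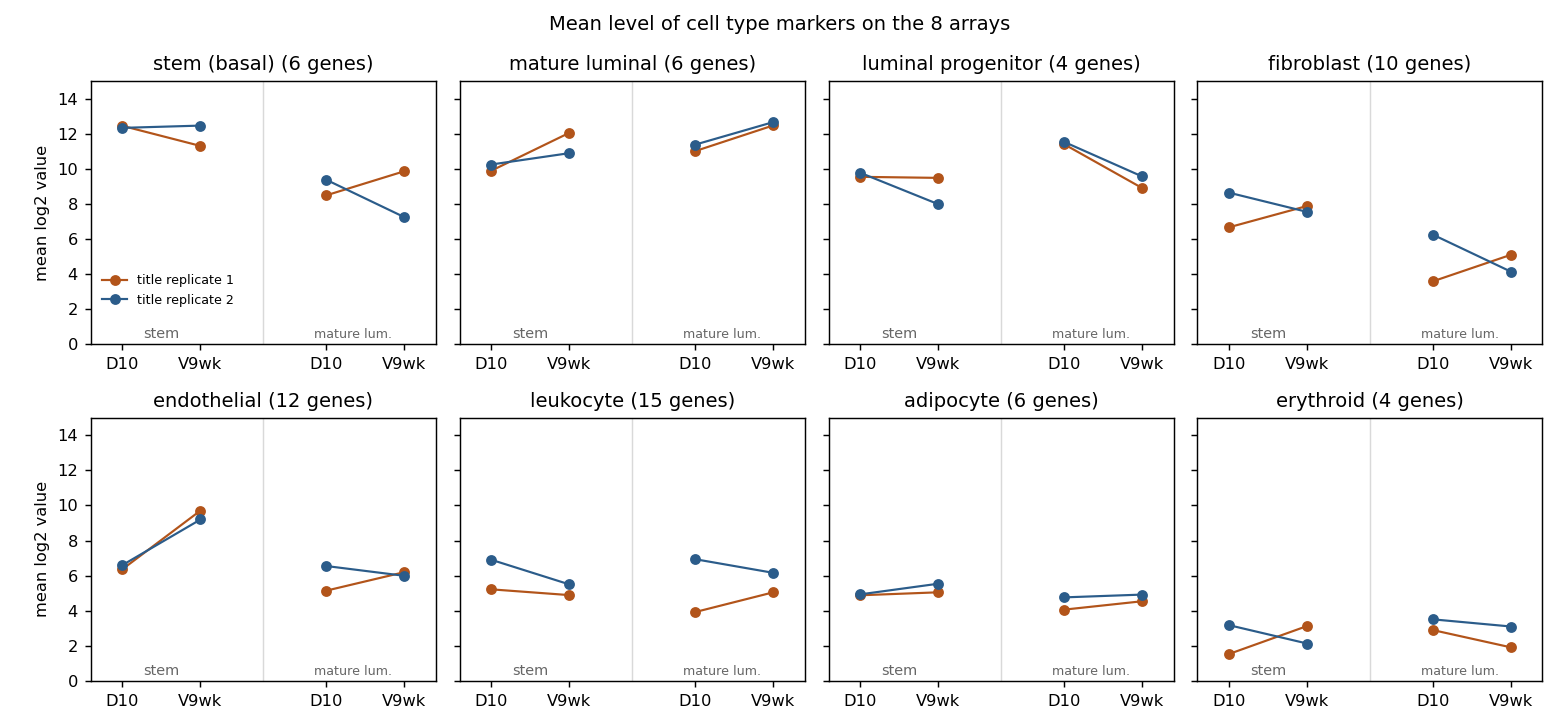
Mean deposited log2 value of 8 sets of cell type markers (vertical axis) on the D10 and V9wk arrays of stem and mature luminal cells, with lines joining arrays of the same cell type and title replicate number. Endothelial markers lay at 6.35 and 6.59 on D10 stem arrays and at 9.71 and 9.20 on V9wk stem arrays, while basal markers separated stem from mature luminal arrays at both stages.

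Averaged over both cell types, 798 of 15378 genes differed between D10 and V9wk (5.19%), with 346 higher (2.25%) and 452 lower (2.94%) at D10. These shares are the background for the counts in gene lists below, and in a short list a count of 0 is near them. All 4 differences had the sign of the call for 310 of the genes that rose and 383 of those that fell. Levels on the 4 D10 arrays lay above all 4 V9wk arrays for 329 genes (2.14%) and below them for 337 (2.19%). A difference of at least 4 log2 units was found for 9 genes that rose and 36 that fell. Within stem cells 167 genes passed (1.09%), 27 higher (0.176%) and 140 lower (0.91%). Within mature luminal cells 528 passed (3.43%), 241 higher (1.57%) and 287 lower (1.87%). The genes that passed in both cell types with the same direction numbered 61, and Esm1 passed with opposite directions.

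These counts depended on the replicate term, on the arrays in the fit and on single arrays. The term takes out a shift between arrays titled replicate 1 and replicate 2, and without it 161 genes passed in the average. With the term but on the 8 arrays alone 324 genes passed in the average, 13 in stem and 191 in mature luminal cells. Within the arrays titled replicate 1 alone 318 passed, and within replicate 2 alone 32. The count was 422 without D10-L1, 372 without D10-L2, 341 without D10-S1 and 497 without V9wk-L2. The stem count was 15 without D10-S1, 405 without D10-S2 and 656 without V9wk-S1. The mature luminal count was 113 without D10-L1, 201 without D10-L2, 124 without V9wk-L2 and 799 without V9wk-S2. Of the 96 genes named here that passed in the average, 44 kept the call without any 1 of the 8 arrays, and 12 kept it under every setting tried. These 12 were AW112010, Alox12e, Cnmd, Csn1s1, Ctse, Dmbt1, Fam25c, Fgb, Ido1, Nrxn3, Rspo1 and Wfdc12.

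**Figure D2:**
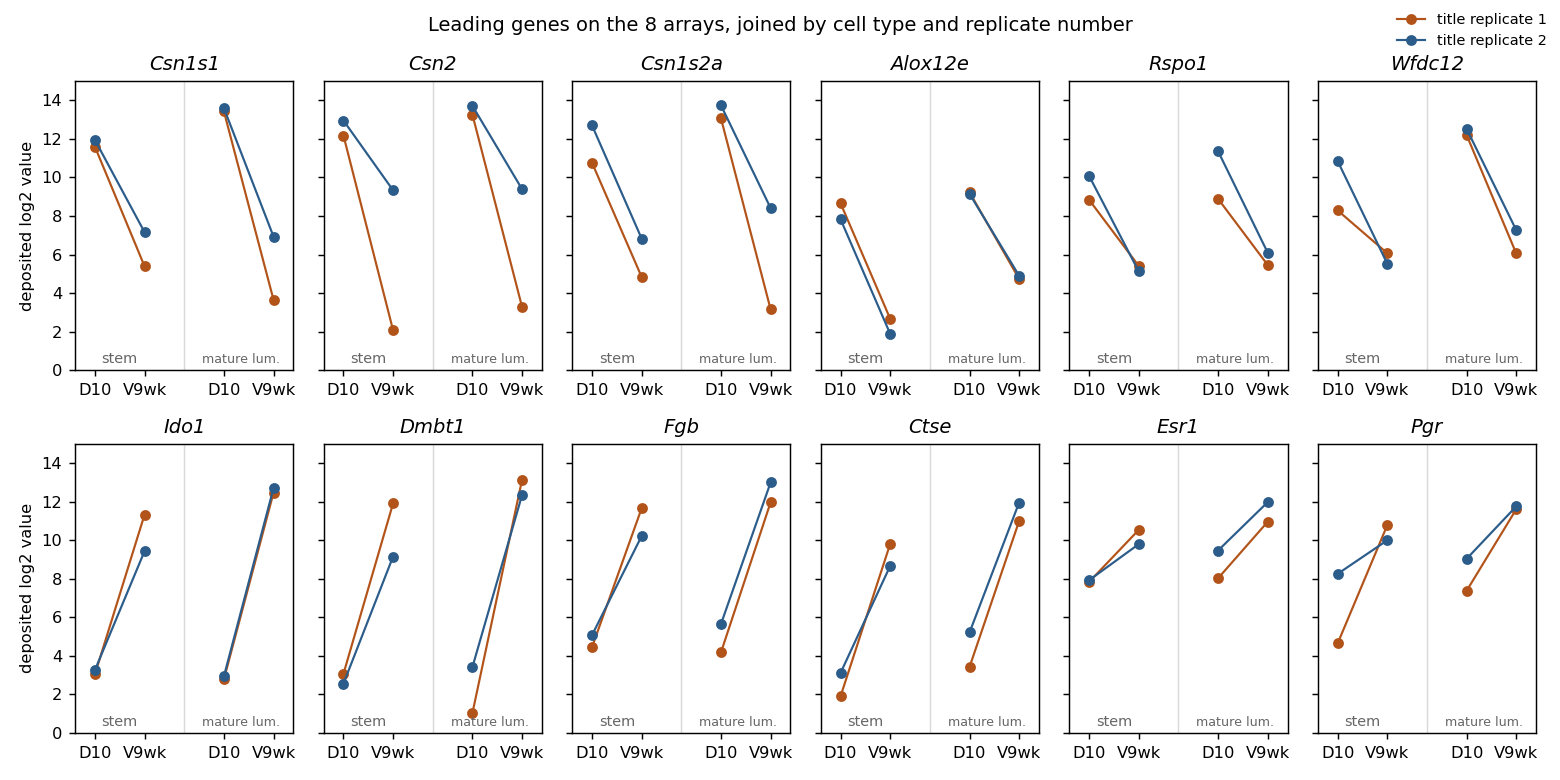
Deposited log2 values (vertical axis) of 12 named genes on the D10 and V9wk arrays of stem and mature luminal cells, with lines joining arrays of the same cell type and title replicate number. The D10 and V9wk values do not overlap for any of the 12 genes, and the V9wk values of Csn2 range from 2.07 to 9.39.

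Milk protein genes rose. Of 11 measured members of the list, 8 were higher at D10 and 0 lower, with a median difference of 2.10 against 0.03 over all genes. The 3 leaders were the caseins Csn2, Csn1s1 and Csn1s2a, which code for the calcium-binding proteins of milk micelles and lie next to each other on chromosome 5. Promoter sequences are shown for these 3 genes because prolactin signalling acts on casein genes through STAT5. They are the 250 bases before the transcript start in RefSeq (build GRCm38.p6), read 5′ to 3′ on the gene's strand, with capitals at matches to TTCNNNGAA, a STAT5-type motif that reads the same on both strands.
Csn1s1, chr5:87665958-87666207, plus strand: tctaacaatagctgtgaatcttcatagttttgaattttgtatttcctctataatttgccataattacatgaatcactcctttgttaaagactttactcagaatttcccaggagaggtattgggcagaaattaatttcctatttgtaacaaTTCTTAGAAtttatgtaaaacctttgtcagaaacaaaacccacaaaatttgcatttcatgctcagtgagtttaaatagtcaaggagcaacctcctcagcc
Csn2, chr5:87699426-87699675, minus strand: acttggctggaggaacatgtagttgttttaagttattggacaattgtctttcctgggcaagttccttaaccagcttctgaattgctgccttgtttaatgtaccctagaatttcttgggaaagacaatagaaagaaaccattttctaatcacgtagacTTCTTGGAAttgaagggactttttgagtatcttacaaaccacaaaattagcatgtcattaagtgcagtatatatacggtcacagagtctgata
Csn1s2a, chr5:87774200-87774449, plus strand: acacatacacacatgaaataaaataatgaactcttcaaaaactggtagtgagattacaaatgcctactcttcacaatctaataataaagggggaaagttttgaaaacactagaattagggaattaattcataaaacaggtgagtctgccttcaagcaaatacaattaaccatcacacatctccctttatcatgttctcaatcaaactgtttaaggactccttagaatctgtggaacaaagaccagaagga
The match in Csn1s1 begins 100 bases before the start and that in Csn2 93 bases before it, and these letters are not in the window of Csn1s2a. Such a match was present in 7.0% of all 32851 promoters in the table, in 6.6% of 257 genes that rose, in 8.5% of 352 that fell and in 7.3% of the 12252 tested genes with a promoter.

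Csn1s1 reached 11.59 and 11.94 on the D10 stem arrays, against 5.39 and 7.16 on the V9wk stem arrays. On mature luminal arrays it stood at 13.42 and 13.59 at D10 and at 3.65 and 6.93 in V9wk. Every D10 value was above every V9wk value, and the average difference was 6.85 ± 0.75 (n = 4 differences, limma adjusted p = 0.000366). Csn2 stood at 12.17 and 12.95 on the D10 stem arrays and 13.25 and 13.71 on the D10 mature luminal arrays. In V9wk it stood at 2.07 and 9.33 on stem and at 3.28 and 9.39 on mature luminal arrays. The D10 values were alike and the V9wk values split by replicate number, so that the 4 differences were 10.10 and 3.62 in stem and 9.97 and 4.32 in mature luminal cells. Their average was 7.0 ± 1.13 (adjusted p = 0.00362). At D10 replicate 2 was also above replicate 1 in both cell types, though by far less. The D10 mature luminal values lie near the array maxima of 14.09 to 14.24, so a wider split could be hidden there. Csn2 lost its call without the replicate term (adjusted p = 0.106), while Csn1s1 kept it (0.00394). Csn1s2a stood at 10.76 and 12.70 on D10 stem and 13.06 and 13.74 on D10 mature luminal arrays. Its V9wk levels were 4.84 and 6.83 in stem and 3.16 and 8.41 in mature luminal cells. The groups did not overlap and the average was 6.75 ± 0.71 (adjusted p = 0.000303). Of its other probe sets above the filter the brightest gave 7.28, with a mean level over all arrays of 8.55. The remaining 2 gave -0.36 and -0.76, with mean levels of 3.73 and 2.24.

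The remaining milk proteins moved less at this stage. Wap, the whey acidic protein of rodent milk, stood at 6.59 and 5.17 on D10 stem and 7.24 and 7.32 on D10 mature luminal arrays, against 2.58 and 2.58 on V9wk stem and 3.74 and 6.21 on V9wk mature luminal arrays. Its groups overlapped, and the difference of 2.80 ± 0.58 (adjusted p = 0.0153) was 1.38 and no longer passed (adjusted p = 0.0564) when values below the array median were raised to it. Lalba, the alpha-lactalbumin subunit of lactose synthase, rose by 3.58 ± 0.81 (adjusted p = 0.0243), or by 2.18 with low values raised. Cel, a bile salt-stimulated lipase secreted into milk, rose by 2.10 ± 0.46 (adjusted p = 0.0198). The kappa-casein Csn3 was already abundant in virgins. It stood at 12.35 and 12.68 on D10 stem and 13.85 and 13.61 on D10 mature luminal arrays, against 12.32 and 12.36 on V9wk stem and 11.82 and 12.42 on V9wk mature luminal arrays, and its average difference was 0.89 ± 0.19 (adjusted p = 0.019). The WAP-domain gene Wfdc18 rose by 0.70 ± 0.17 (adjusted p = 0.0329), a call lost with low values raised (adjusted p = 0.0626). Csn1s2b, Glycam1 and Ltf had differences of 1.90, -0.94 and -0.51 and did not pass (adjusted p of 0.219, 0.206 and 0.609). The count of 8 was 2 without the replicate term, with Csn1s1 and Csn1s2a left, and 5 on the 8 arrays alone. It was 3 without D10-L1, 4 without D10-L2 or V9wk-L1, and 5 without D10-S1, D10-S2 or V9wk-S2. Csn1s1, Csn2 and Csn1s2a kept their calls without each of the 8 arrays, while Wap lost its call without D10-L1, D10-L2, D10-S1 or V9wk-L1 and Csn3 without D10-L1, D10-S2 or V9wk-L1. Lalba lost it without the arrays named for Wap or V9wk-S2, Cel without D10-L1, D10-L2, D10-S2, V9wk-L2 or V9wk-S2, and Wfdc18 without any D10 array, V9wk-L1 or V9wk-S2.

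Lipid genes of milk passed in fewer cases. Of 12 genes of the milk fat globule and of lipid uptake 3 rose and 0 fell, with a median difference of 1.19 (2.25% of all genes rose). Fabp3, a fatty acid binding protein, stood at 8.56 and 10.93 on D10 mature luminal and 6.16 and 8.53 on D10 stem arrays. In V9wk it was at 4.05 and 4.45 on mature luminal and at 6.59 and 8.28 on stem arrays. The stages separated in mature luminal cells (difference 5.50, adjusted p = 0.0017) and overlapped in stem cells (-0.09, adjusted p = 0.96), and the test of the difference between cell types did not pass (5.59 ± 1.02, adjusted p = 0.0813). Another probe set of Fabp3 gave -0.37. Muc1 and Mfge8, coat proteins of the globule, rose by 1.73 ± 0.45 and 0.88 ± 0.23 (adjusted p of 0.0418 and 0.0413), and both calls were lost with low values raised (0.0581 and 0.0632). Butyrophilin Btn1a1 (1.55) and xanthine oxidoreductase Xdh (1.60), which act in globule release, had adjusted p of 0.0645 and 0.0546. The count of 3 was 0 without the replicate term, where Fabp3 had an adjusted p of 0.0937. It was also 0 without D10-L2, which also ended the call of Fabp3. It was 1 without D10-L1, D10-S1, D10-S2 or V9wk-S2, and V9wk-L1 ended the calls of Muc1 and Mfge8 as those arrays did.

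Fatty acid and triglyceride synthesis had 2 of 19 genes higher and 0 lower in the average, with a median of 0.18 (2.25% of all genes rose). Acaca, which makes malonyl-CoA, rose by 1.54 ± 0.36 (adjusted p = 0.028), and Olah, the thioesterase that sets the chain length of milk fatty acids, by 3.43 ± 0.87 (adjusted p = 0.0382). On V9wk mature luminal arrays Olah stood at 7.70 and 3.65. Its difference was 2.03 without V9wk-L2 and 1.88 with low values raised, and it did not pass in either case or without any other array but V9wk-L1. Without the replicate term or on the 8 arrays alone 0 of the 19 genes passed limma's test (3 of 19 had an unadjusted p under 0.05 with the term). The call of Acaca was lost without D10-L2, D10-S1, V9wk-L1, V9wk-L2 or V9wk-S2. The fatty acid synthase Fasn was at 0.75 ± 0.40 (adjusted p = 0.332). Within stem cells 0 of the 19 genes passed, and within mature luminal cells 0 were higher and 1 was lower. That was the triglyceride synthesis gene Dgat2, at -2.22 by limma's test there (adjusted p = 0.04, or 0.184 without the replicate term). In the average Dgat2 was at -0.93 and did not pass (adjusted p = 0.192). None of 15 cholesterol synthesis genes, 20 genes of the secretory pathway and unfolded protein response, 11 ribosomal proteins, 15 ribosome biogenesis genes or 19 oxidative phosphorylation genes passed limma's test in the average, and their medians lay between -0.21 and 0.42. At an unadjusted p under 0.05 there were 2, 2, 0, 3 and 0 of them, and 0 passed in any of these lists without the replicate term. Counts of 0 in lists of this size are near the 5.19% of all genes that passed. Within mature luminal cells Stard4, a sterol carrier of the cholesterol list, was higher at 3.43 (adjusted p = 0.0062). Among 18 transport genes 4 fell and 0 rose, while 2.94% of all genes fell. The 4 were the cationic amino acid transporter Slc7a2 (-2.86 ± 0.35, adjusted p = 0.000717), the sodium-potassium-chloride cotransporter Slc12a2 (-1.0 ± 0.13, adjusted p = 0.00122), the secretory pathway calcium pump Atp2c2 (-2.01) and the water channel Aqp5 (-1.90). The calls of Atp2c2 and Aqp5 were lost with low values raised (adjusted p of 0.0531 and 0.0665). The count of 4 was 2 without the replicate term, on the 8 arrays alone and without D10-L1, D10-L2, D10-S1, V9wk-L2 or V9wk-S1, each of which ended the calls of Atp2c2 and Aqp5, as leaving out D10-S2 did for Atp2c2.

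Hormone receptor genes fell. Of 9 measured genes of the hormone-sensing luminal programme 5 were lower at D10 and 0 higher, with a median of -1.96. The oestrogen receptor gene Esr1 stood at 7.83 and 7.92 on D10 stem arrays and 8.02 and 9.46 on D10 mature luminal arrays, against 10.53 and 9.79 on V9wk stem and 10.95 and 11.97 on V9wk mature luminal arrays. No D10 array reached a V9wk array, and the average difference was -2.50 ± 0.32 (adjusted p = 0.000868). The progesterone receptor gene Pgr stood at 4.64 and 8.25 on D10 stem and 7.37 and 9.03 on D10 mature luminal arrays. In V9wk it stood at 10.77 and 9.99 on stem and at 11.60 and 11.75 on mature luminal arrays. These groups did not overlap either, and Pgr fell by 3.71 ± 0.59 (adjusted p = 0.00338). Esr1 and Pgr also passed within stem cells (-2.28 and -3.94, adjusted p of 0.0328 and 0.0438), although the Pgr call there was lost with low values raised (adjusted p = 0.0589).

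Foxa1, which opens chromatin for the oestrogen receptor, fell by 1.97 ± 0.31 (adjusted p = 0.0031), and the T-box factor Tbx3 by 1.31 ± 0.30 (adjusted p = 0.0261). Greb1, an oestrogen-induced gene, was at -3.60 ± 0.89 (adjusted p = 0.0354). It was at -2.09 without D10-S1, and its call was lost without any array but D10-S2 and with low values raised (adjusted p = 0.0563). Gata3, the master regulator of luminal fate, was at 0.11 (adjusted p = 0.863), and Cited1 at -1.96 (adjusted p = 0.088). The count of 5 was 3 without the replicate term, with Esr1, Pgr and Foxa1 left, and 3 on the 8 arrays alone. It was 3 without D10-L1, D10-L2, V9wk-L2 or V9wk-S1, each of which ended the call of Tbx3, as D10-S2 did. Beside these genes the luminal keratins Krt8 and Krt18 stood at 0.09 ± 0.16 and -0.01 ± 0.18 (adjusted p of 0.815 and 0.986).

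The secreted mediators that hormone-sensing cells use are known from mouse work to include RANKL, WNT4 and R-spondin 1. Rspo1, a secreted enhancer of Wnt signalling, stood at 8.84 and 10.08 on D10 stem and 8.89 and 11.36 on D10 mature luminal arrays, against 5.41 and 5.13 on V9wk stem and 5.46 and 6.10 on V9wk mature luminal arrays. The groups were far apart in both cell types, and the average was 4.27 ± 0.44 (adjusted p = 0.000255). The growth factor gene Igf2 stood at 9.54 and 10.08 on D10 mature luminal arrays, against 3.82 and 3.40 on V9wk ones. On stem arrays it stood at 9.09 and 7.67 at D10 and 8.63 and 6.82 in V9wk. It thus separated the stages in mature luminal cells, at 6.20 (adjusted p = 0.000923), and overlapped in stem cells, at 0.65 (adjusted p = 0.652). The test of this difference between cell types gave 5.55 ± 1.01 and did not pass (adjusted p = 0.0813). Tnfsf11, which codes for RANKL, stood at 3.30 and 9.22 on D10 mature luminal and 3.49 and 6.54 on D10 stem arrays, against 3.25 to 3.72 on the 4 V9wk arrays. It was high on the D10 arrays titled replicate 2 only, and its difference of 2.18 ± 0.82 did not pass (adjusted p = 0.162). Wnt4 was at -1.52 ± 0.62 (adjusted p = 0.194). In all, 2 of 9 paracrine mediators rose and 0 fell, while 2.25% of all genes rose.

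In the prolactin pathway 2 of 16 genes rose and 2 fell, while over all genes 2.25% rose and 2.94% fell. Elf5, the ETS factor of alveolar differentiation, stood at 9.34 and 10.34 on D10 stem and 10.52 and 11.90 on D10 mature luminal arrays. Its V9wk levels were 8.37 and 6.24 in stem and 7.45 and 8.59 in mature luminal cells. The groups did not overlap, and the difference was 2.86 ± 0.56 (adjusted p = 0.012), a call that was lost without D10-L2 or D10-S1. Another ETS factor, Ehf, rose by 1.32 ± 0.32 (adjusted p = 0.031), a call lost without D10-L2, D10-S2, V9wk-L2 or V9wk-S2. The kinase gene Jak2 fell by 1.15 ± 0.20 (adjusted p = 0.00505), with 4 D10 levels of 10.20 to 10.45 under 4 V9wk levels of 11.28 to 11.74. The feedback inhibitor Socs3 was at -1.14 ± 0.30 (adjusted p = 0.0472), at -0.68 without D10-L1, and lost its call without any array but D10-L2 and with low values raised (adjusted p = 0.0665). Stat5a was at -0.97 ± 0.33 and did not pass (adjusted p = 0.114). Elf5, Ehf and Socs3 lost their calls without the replicate term (adjusted p of 0.0805, 0.277 and 0.612), and Jak2 kept it (0.0306). The prolactin receptor was not analysed here.

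Genes known from luminal progenitors rose in 4 of 10 cases and fell in 0 in the average (2.25% and 2.94% of all genes). Their medians were 1.5 in mature luminal and 0.36 in stem cells. Within mature luminal cells 4 were higher and 1 was lower, and within stem cells 0 passed. Sox10, a factor of progenitor and basal states, stood at 10.65 and 11.43 on D10 mature luminal and 10.78 and 11.49 on D10 stem arrays. In V9wk it was at 6.28 and 8.74 on mature luminal and 8.89 and 9.36 on stem arrays. The groups did not overlap and the difference was 2.77 ± 0.41 (adjusted p = 0.00241). Lmo4, a LIM-only regulator of lobuloalveolar growth in mice, rose by 1.56 ± 0.28 (adjusted p = 0.00616). The receptor tyrosine kinase Kit was at 10.11 and 10.55 on D10 mature luminal arrays and 6.33 and 7.52 on V9wk ones. On stem arrays it overlapped, at 6.97 and 7.79 at D10 and 7.26 and 6.81 in V9wk. Its average difference was 1.87 ± 0.41 (adjusted p = 0.0211), and the cell types were not shown to differ (3.06 ± 0.83, adjusted p = 0.187). The count of 4, which includes Elf5, was 1 without the replicate term, where Sox10 kept its call (adjusted p = 0.0325) and Kit, Lmo4 and Elf5 lost it (0.0976, 0.0741 and 0.0805). It was 2 without D10-L2 or D10-S1, and Kit lost its call without any D10 array, V9wk-L1 or V9wk-S2. Prom1, a surface glycoprotein of hormone-sensing luminal cells in mice, fell by 3.36 ± 0.33 (adjusted p = 0.000205) with no overlap between stages.

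Keratins outside the basal and luminal pairs also moved. Of 10 such keratins 5 fell and 1 rose, with medians of -1.53 in mature luminal and -0.18 in stem cells. Krt6a, a keratin of stratified and activated epithelia, stood at 8.15 and 5.86 on D10 mature luminal arrays and 12.76 and 12.32 on V9wk ones. On stem arrays it stood at 9.28 and 8.32 at D10 and at 11.64 and 8.84 in V9wk. Its average difference was -3.49 ± 0.36 (adjusted p = 0.000297), at -5.54 in mature luminal and -1.44 in stem cells, and the test between cell types did not pass (-4.10 ± 0.73, adjusted p = 0.0813). Krt4, a keratin of internal stratified epithelia, fell by 3.38 ± 0.49 (adjusted p = 0.0022) and Krt79 by 2.63 ± 0.61 (adjusted p = 0.026). Krt13 did not exceed 4.11 on any of the 8 arrays and Krt6b reached 7.71 on V9wk-L1, without which its difference was -1.62. Their differences of -2.59 and -2.53 became -0.07 and -0.84 with low values raised and lost their calls (adjusted p of 0.741 and 0.383). Krt23 rose by 1.88 ± 0.31 (adjusted p = 0.004). The count of 5 was 1 without the replicate term, where Krt6a kept its call (adjusted p = 0.0319) and Krt4 lost it (0.198), and 2 on the 8 arrays alone. It was 2 without D10-L1 or D10-L2 and 3 without D10-S1, D10-S2, V9wk-L1, V9wk-S1 or V9wk-S2. Krt79 lost its call without D10-L1, D10-L2, D10-S1, V9wk-L1 or V9wk-S1, Krt13 without D10-L1, D10-L2, D10-S2, V9wk-L2 or V9wk-S2, and Krt6b without any array but V9wk-L2. None of 24 basal and myoepithelial genes passed limma's test in the average (7 at an unadjusted p under 0.05 and 0 without the replicate term), while 3 were higher without D10-L1. In a list of 24 a count of 0 is near the 5.19% of all genes that passed. Within mature luminal cells the caveolar protein gene Cav1 was lower at -1.69 (adjusted p = 0.0469). Krt5, Krt14 and the smooth muscle actin Acta2 stood at -0.13 ± 0.62, 0.09 ± 0.42 and 0.96 ± 0.43 (adjusted p of 0.943, 0.942 and 0.246).

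**Figure D3:**
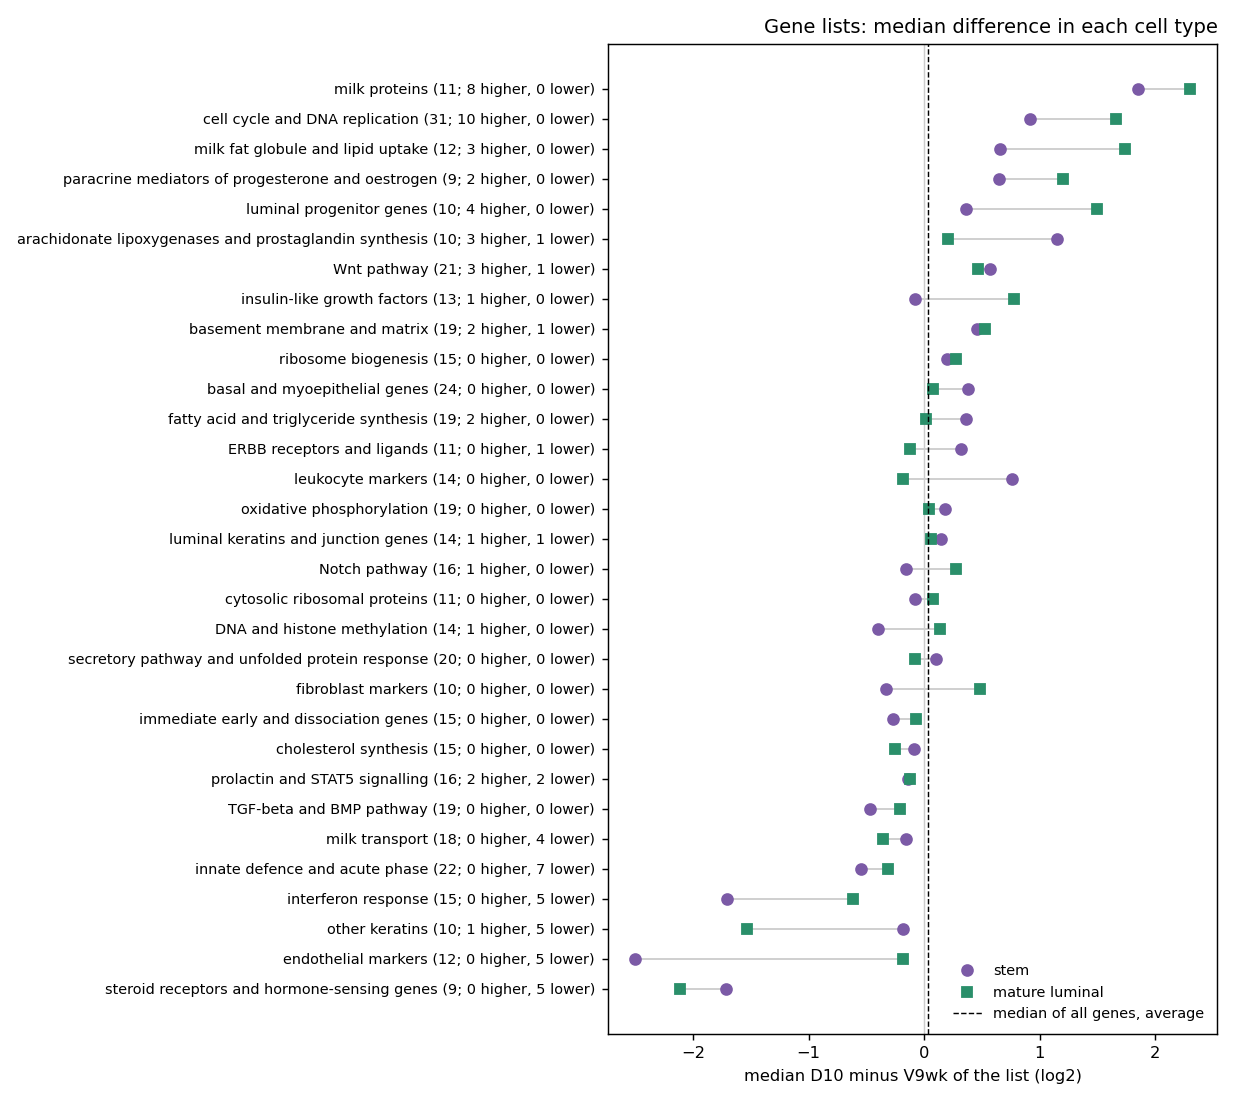
Median D10 minus V9wk difference in log2 units (horizontal axis) of the gene lists with at least 9 measured members, in stem and in mature luminal cells, with the number of measured, higher and lower genes beside each name. Milk proteins have the highest median in mature luminal cells, at 2.30, and endothelial markers the lowest in stem cells, at -2.50.

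Of 31 measured cell cycle genes 10 rose and 0 fell, with a median of 1.30, and 16 had all 4 differences above 0 (12.4% of all genes did). The proliferation marker Mki67 stood at 10.19 and 8.53 on D10 stem and 9.63 and 10.25 on D10 mature luminal arrays, against 9.06 and 6.43 on V9wk stem and 6.98 and 7.09 on V9wk mature luminal arrays. It was higher in every matched difference although the stem values overlapped, and the average was 2.26 ± 0.50 (adjusted p = 0.0213). The mitotic kinase gene Cdk1 stood at 9.26 and 8.75 on D10 stem and 10.57 and 10.11 on D10 mature luminal arrays. Its V9wk levels were 8.92 and 5.85 in stem and 7.41 and 7.25 in mature luminal cells, and the difference was 2.31 ± 0.45 (adjusted p = 0.0113). Mcm5 and Mcm7 of the replicative helicase rose by 2.19 ± 0.49 and 1.34 ± 0.31 (adjusted p of 0.0227 and 0.0263), and the cyclin Ccna2 by 1.81 ± 0.38 (adjusted p = 0.0165). The S-phase regulator E2f1 rose by 1.97 ± 0.44 and the ribonucleotide reductase subunit Rrm1 by 1.64 ± 0.40 (adjusted p of 0.0225 and 0.032). Topoisomerase Top2a rose by 1.79 ± 0.41 (adjusted p = 0.0253), while another probe set of it gave -0.46. The spindle motor Kif11 rose by 2.05 ± 0.41 (adjusted p = 0.0127), or by 1.30 with low values raised, and the checkpoint kinase Bub1 by 1.81 ± 0.45 (adjusted p = 0.0374), a call lost with low values raised (adjusted p = 0.0533). Every one of these 10 calls was lost without D10-L2. Only that array ended the call of Cdk1, and D10-L1 also ended that of Kif11. Mki67, Mcm5, Mcm7, Ccna2, Rrm1, Top2a and Bub1 lost theirs without D10-S1 too, and these 7 and E2f1 without V9wk-L1. All of these but Mcm5 and Ccna2 lost the call without V9wk-S2 as well, E2f1, Top2a and Bub1 without D10-S2, Rrm1 and Bub1 without D10-L1, and Mcm7 and Bub1 without V9wk-L2.

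The cell cycle count rested on single arrays. It was 0 without D10-L2, 2 without V9wk-L1, 3 without D10-S1, 4 without V9wk-S2 and 19 without V9wk-S1, and it was 0 without the replicate term and on the 8 arrays alone. Marker means on D10-L2 stood above those on D10-L1, at 6.94 against 3.92 for leukocytes and 6.25 against 3.58 for fibroblasts. The part of this in the cell cycle result was not tested. By limma's test 22 of the 31 genes had an unadjusted p under 0.05. Within stem cells 0 of the 31 passed (12 at an unadjusted p under 0.05), and within mature luminal cells 7 did. Of 7 cyclin-dependent kinase inhibitor genes 0 passed limma's test (3 at an unadjusted p under 0.05, 0 without the replicate term), with Cdkn1b, which codes for p27, at 0.45 ± 0.17 (adjusted p = 0.157) and Cdkn2c at 1.05 ± 0.32 (adjusted p = 0.0808). Among 14 genes of DNA and histone methylation Uhrf1, which brings DNMT1 to newly replicated DNA, rose by 1.27 ± 0.31 (adjusted p = 0.0346). It was the only member to pass, a count near the 5.19% of all genes that passed. Its call was lost without D10-L1, D10-L2, D10-S1, V9wk-L1 or V9wk-S2. Dnmt1 itself was at 0.45 ± 0.31 (adjusted p = 0.466).

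Dmbt1 and Ido1 had the widest average differences among the named genes, and both are defence genes that fell. Of 22 genes of innate defence and the acute phase 7 fell and 0 rose, although the median of the list was -0.41. Over all genes 2.94% fell. The list was chosen with earlier results of these data known, so its count is not independent of them. The count was 5 without the replicate term and 5 on the 8 arrays alone. Ido1 is also counted among the interferon response genes below. Dmbt1, a secreted scavenger receptor of mucosal surfaces, stood at 3.07 and 2.56 on D10 stem and 1.04 and 3.42 on D10 mature luminal arrays, against 11.91 and 9.15 on V9wk stem and 13.13 and 12.34 on V9wk mature luminal arrays. Its D10 values were all below the array medians and its V9wk values far above them, and the average difference was -9.11 ± 0.65 (adjusted p = 1.46e-05). Ido1, the interferon-inducible enzyme that degrades tryptophan, stood at 3.05 and 3.26 on D10 stem and 2.79 and 2.94 on D10 mature luminal arrays. In V9wk it stood at 11.32 and 9.43 on stem and at 12.46 and 12.70 on mature luminal arrays. The stages were again fully separate, at -8.47 ± 0.46 (adjusted p = 2.14e-06).

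The aspartic protease cathepsin E, Ctse, stood at 1.90 and 3.11 on D10 stem and 3.42 and 5.21 on D10 mature luminal arrays, against 9.80 and 8.66 on V9wk stem and 10.99 and 11.95 on V9wk mature luminal arrays. It fell by 6.94 ± 0.59 (adjusted p = 7.11e-05), and its other probe set gave 1.09. The fibrinogen beta chain gene Fgb stood at 4.45 and 5.07 on D10 stem and 4.18 and 5.65 on D10 mature luminal arrays. Its V9wk levels were 11.65 and 10.21 in stem and 11.96 and 12.99 in mature luminal cells, and the difference was -6.87 ± 0.45 (adjusted p = 1.14e-05). Neither gene overlapped between stages. The gamma chain gene Fgg fell by 3.19 ± 0.31 (adjusted p = 0.000203), haptoglobin Hp by 2.74 ± 0.54 (adjusted p = 0.012) and the chemokine Cxcl5 by 2.25 ± 0.50 (adjusted p = 0.0229). The Cxcl5 call was lost with low values raised (adjusted p = 0.142), without the replicate term (0.689) and without D10-L1, D10-L2, D10-S1, V9wk-L2 or V9wk-S1, and that of Hp without the term (0.104), D10-L1 or D10-S1. Other members of the list did not follow, with Saa1 at 0.88, Lcn2 at 0.58, S100a8 at 1.78 and Pigr at 1.38, none of which passed.

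Interferon response genes had 5 of 15 members lower and 0 higher, with medians of -1.71 in stem and -0.62 in mature luminal cells. Besides Ido1 they were Ifit1, Ifit3, Gbp2 and Irf9. Promoters are shown for 3 interferon-induced genes because motifs that bind interferon-activated factors are known there, and that of Fgb because it is a gene that fell and holds the STAT5-type letters. Capitals mark, in the interferon-induced genes, GAAA and a second GAAA with any 2 bases between them, or TTTC and a second TTTC spaced alike, which is the same motif on the other strand. In Fgb they mark TTCNNNGAA.
Ifit1, chr19:34640639-34640888, plus strand: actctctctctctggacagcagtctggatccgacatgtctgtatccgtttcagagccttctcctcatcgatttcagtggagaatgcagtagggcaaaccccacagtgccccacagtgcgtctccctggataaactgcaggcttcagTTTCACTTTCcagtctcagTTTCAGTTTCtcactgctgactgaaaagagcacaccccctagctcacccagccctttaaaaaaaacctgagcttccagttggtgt
Ifit3, chr19:34583279-34583528, plus strand: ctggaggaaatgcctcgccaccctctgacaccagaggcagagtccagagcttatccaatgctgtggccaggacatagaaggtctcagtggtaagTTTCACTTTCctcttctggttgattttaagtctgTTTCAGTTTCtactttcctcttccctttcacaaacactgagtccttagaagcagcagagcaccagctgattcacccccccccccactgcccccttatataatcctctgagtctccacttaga
Gbp2, chr3:142620413-142620662, plus strand: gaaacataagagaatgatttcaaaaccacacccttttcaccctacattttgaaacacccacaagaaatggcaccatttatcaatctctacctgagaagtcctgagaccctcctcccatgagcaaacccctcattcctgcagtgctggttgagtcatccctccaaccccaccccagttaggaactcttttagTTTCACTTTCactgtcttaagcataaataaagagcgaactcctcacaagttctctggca
Fgb, chr3:83049864-83050113, minus strand: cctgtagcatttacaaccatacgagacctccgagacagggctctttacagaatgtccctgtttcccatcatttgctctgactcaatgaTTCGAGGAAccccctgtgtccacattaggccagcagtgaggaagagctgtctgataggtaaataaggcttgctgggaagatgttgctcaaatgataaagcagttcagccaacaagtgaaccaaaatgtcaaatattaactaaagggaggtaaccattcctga
The matches begin 104 and 85 bases before the start of Ifit1, 156 and 122 before that of Ifit3, 59 before that of Gbp2 and 162 before that of Fgb, and the window of Irf9 holds none. The interferon-type letters were present in 3.0% of all promoters, in 3.1% of the genes tested, in 2.3% of the genes that rose and in 8.2% of those that fell (29 of 352). These shares are descriptions of the windows and were not tested.

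Ifit1, an antiviral RNA-binding protein, stood at 6.94 and 6.02 on D10 stem and 8.31 and 5.92 on D10 mature luminal arrays, against 10.79 and 9.25 on V9wk stem and 8.85 and 6.38 on V9wk mature luminal arrays. The stem arrays separated by stage and the mature luminal ones overlapped. The average difference was -2.02 ± 0.46 (adjusted p = 0.0253), and the call was lost without D10-L1, D10-L2, D10-S1, V9wk-L1 or V9wk-S2. Ifit3 fell by 1.68 ± 0.32 (adjusted p = 0.0107), the guanylate-binding protein Gbp2 by 1.64 ± 0.31 (adjusted p = 0.00951) and the transcription factor Irf9 by 1.51 ± 0.39 (adjusted p = 0.0448, lost with low values raised at 0.0564). Ifit1 and Ifit3 passed within stem cells (-3.54 and -2.92, adjusted p of 0.0245 and 0.0133) and not within mature luminal cells (-0.50 and -0.44), but the cell types were not shown to differ (adjusted p of 0.235 and 0.183). The count of 5 was 2 without the replicate term, with Ido1 and Gbp2 left, and 2 on the 8 arrays alone. It was 2 without D10-L1, which alone ended the call of Ifit3, and 3 without D10-L2, D10-S1 or V9wk-L1. Irf9 lost its call without any array but D10-S2. Leukocyte markers, which could move with such genes, averaged 5.22 and 6.91 on D10 stem arrays and 4.89 and 5.50 on V9wk ones. On mature luminal arrays they averaged 3.92 and 6.94 at D10 and 5.05 and 6.16 in V9wk. Of these markers 0 of 14 passed limma's test in the average (1 at an unadjusted p under 0.05, 0 without the replicate term). Their part in the result was not tested.

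Enzymes of the arachidonate pathway moved in both directions, with 3 of 10 higher and 1 lower (2.25% and 2.94% of all genes). Alox12e, an epidermal-type lipoxygenase, stood at 8.66 and 7.83 on D10 stem and 9.23 and 9.15 on D10 mature luminal arrays. Its V9wk levels were 2.67 and 1.89 in stem and 4.73 and 4.90 in mature luminal cells. No values overlapped, and the difference was 5.17 ± 0.44 (adjusted p = 7.11e-05). Hpgd, which inactivates prostaglandins, rose by 3.57 ± 0.59 (adjusted p = 0.0042), or by 1.83 with low values raised, and the prostaglandin E synthase Ptges by 1.38 ± 0.29 (adjusted p = 0.0166), a call lost without D10-L1, D10-S1 or V9wk-L2. Alox15, a lipoxygenase of a related type, fell by 3.75 ± 0.61 (adjusted p = 0.00369). Without the replicate term Alox12e kept its call (adjusted p = 0.000375), while Hpgd, Ptges and Alox15 lost theirs (0.165, 0.0959 and 0.125). The cyclooxygenase Ptgs2 was at -1.08 and did not pass.

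The remaining leaders among the genes that rose were outside the lists. Wfdc12, a secreted WAP-domain protein, stood at 8.29 and 10.85 on D10 stem and 12.20 and 12.52 on D10 mature luminal arrays, against 6.07 and 5.53 on V9wk stem and 6.06 and 7.27 on V9wk mature luminal arrays. Cnmd, the cartilage glycoprotein chondromodulin, stood at 7.88 and 8.37 on D10 stem and 8.95 and 9.33 on D10 mature luminal arrays, against 4.10 and 3.80 on V9wk stem and 3.12 and 4.97 on V9wk mature luminal arrays. Neither gene overlapped between stages, and the differences were 4.73 ± 0.46 and 4.64 ± 0.48 (adjusted p of 0.000203 and 0.000255). Gad1, the enzyme that makes GABA, was at 4.79 ± 0.76 (adjusted p = 0.00342), but all its V9wk levels lay between 0.12 and 2.46. With low values raised its difference was 1.12, and another probe set gave -0.11. The mouse ferritin receptor Timd2 rose by 4.08 ± 0.55, the ectonucleotidase Entpd8 by 3.81 ± 0.59 and the membrane protein Minar1 by 3.69 ± 0.63 (adjusted p of 0.00135, 0.00306 and 0.00535). These became 2.21, 1.61 and 1.58 with low values raised, and Minar1 lost its call without the replicate term (adjusted p = 0.184). Mesothelin, Msln, was at 3.95 ± 0.77 (adjusted p = 0.012), at 1.17 with low values raised (adjusted p = 0.0858), and its call was also lost without D10-S1.

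Among the genes that fell farthest, AW112010 stood at 5.90 and 7.50 on D10 stem and 8.08 and 8.19 on D10 mature luminal arrays, against 12.81 and 11.05 on V9wk stem and 13.07 and 13.05 on V9wk mature luminal arrays. It was still above the array medians at D10, did not overlap, and fell by 5.08 ± 0.40 (adjusted p = 4.04e-05). Aoc1, the diamine oxidase that degrades histamine, fell by 6.55 ± 1.01 (adjusted p = 0.00305), the chemokine Cxcl15 by 5.47 ± 0.84 (adjusted p = 0.00287) and Fam25c by 5.42 ± 0.66 (adjusted p = 0.000717). Smim38 fell by 5.95 ± 1.02 (adjusted p = 0.0054). The synaptic adhesion gene Nrxn3, the cation channel Trpc6 and the axonemal dynein gene Dnaic1 fell by 6.06 ± 0.41, 5.71 ± 0.71 and 5.55 ± 0.65 (adjusted p of 1.14e-05, 0.000844 and 0.000589). Their V9wk levels lay between 6.04 and 9.86, and with low values raised their differences were -3.63, -2.92 and -2.79. Other probe sets of Nrxn3 gave -5.48, -3.37 and 0.26, with mean levels over all arrays of 5.26, 3.28 and 3.04. Pparg, a fatty acid-sensing nuclear receptor, fell by 3.83 ± 0.60 (adjusted p = 0.00325). Adipocyte markers as a set, which includes Pparg, averaged 4.88 and 4.93 on D10 stem arrays and 5.05 and 5.54 on V9wk ones. On mature luminal arrays they averaged 4.06 and 4.76 at D10 and 4.54 and 4.92 in V9wk. Single members differed in direction on stem arrays. Fabp4 stood at 11.31 and 11.11 at D10 and 13.13 and 12.80 in V9wk, and Adipoq at 5.45 and 4.87 against 3.42 and 3.58.

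Wnt pathway genes were mixed, with 3 of 21 higher and 1 lower (2.25% and 2.94% of all genes). The ligand Wnt5a stood at 5.41 and 6.47 on D10 mature luminal arrays, against 9.72 and 11.01 on V9wk ones. On stem arrays it overlapped, at 9.45 and 9.18 at D10 and 9.10 and 10.34 in V9wk. Its average difference was -2.42 ± 0.33 (adjusted p = 0.00135). The ligand Wnt5b rose by 1.84 ± 0.38, the R-spondin receptor Lgr6 by 2.39 ± 0.52 and the antagonist Sostdc1 by 1.46 ± 0.30 (adjusted p of 0.0147, 0.0205 and 0.0147). Wnt5b lost its call without D10-L2, D10-S1 or V9wk-L1, Lgr6 without D10-L1, D10-S1, V9wk-L1 or V9wk-S1 and Sostdc1 without D10-L1, D10-L2 or D10-S1. The count of 3 was 0 without the replicate term, on the 8 arrays alone and without D10-S1. It was 1 without D10-L1, D10-L2 or V9wk-L1, and 7 without V9wk-S2, and 2 genes were lower without D10-S2 or V9wk-S2. The Notch target Heyl rose by 3.17 ± 0.57 (adjusted p = 0.00718), or by 1.07 with low values raised, and its other probe sets gave 1.48 and -0.14. It was the member that passed of 16 in that pathway. The ERBB ligand Epgn fell by 1.51 ± 0.34 (adjusted p = 0.0243), 1 of 11 in its list. Both counts are near the 5.19% of all genes that passed and are not results about these pathways. Matrix genes had Lama4 and Lamb1, chains of basement membrane laminins, higher at 1.90 ± 0.46 and 1.41 ± 0.37 (adjusted p of 0.0316 and 0.0459) and the hemidesmosome linker Dst lower at -1.07 ± 0.20 (adjusted p = 0.0099). The Lamb1 call was lost with low values raised (adjusted p = 0.0568), and another probe set of Lama4 gave -0.48. Without the replicate term Wnt5a kept its call (adjusted p = 0.0206), and Heyl, Epgn, Lama4, Lamb1 and Dst lost theirs (0.163, 0.157, 0.261, 0.168 and 0.105). The Dst call was lost without D10-L2, the Epgn call without D10-L1, D10-L2, D10-S1, V9wk-L2 or V9wk-S1, and those of Lama4 and Lamb1 without any D10 array, V9wk-L2 or V9wk-S1. None of 19 TGF-beta and BMP genes, 15 immediate early genes or 10 fibroblast markers passed limma's test in the average. At an unadjusted p under 0.05 there were 6, 3 and 0 of them, and 0 passed without the replicate term. These counts of 0 are also near the share of all genes that passed. Within mature luminal cells the ligand gene Tgfb2 was higher at 2.37 (adjusted p = 0.0204).

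Endothelial markers fell in the stem preparations. Of 12 markers 6 were lower within stem cells, against 0 within mature luminal cells, and 5 fell in the average, with medians of -2.50 in stem and -0.18 in mature luminal cells. Kdr, a VEGF receptor, stood at 2.93 and 6.07 on D10 stem arrays, against 9.33 and 11.38 on V9wk stem arrays. On mature luminal arrays it stood at 4.96 and 6.20 at D10 and at 6.26 and 5.58 in V9wk. The stem arrays separated by stage and the mature luminal ones overlapped, with -5.86 in stem cells (adjusted p = 0.00656) and -0.34 in mature luminal cells (adjusted p = 0.915). Pecam1, Cdh5, Emcn, Plvap and Tek also passed within stem cells, at -3.79, -4.81, -4.28, -2.38 and -3.45. The part of this shift in the 140 genes that fell in stem cells was not tested. Without the replicate term Kdr, Pecam1, Cdh5, Emcn and Plvap did not pass within stem cells (adjusted p of 0.1, 0.1, 0.311, 0.201 and 0.201). The count of 5 in the average was 0 without the term, 1 on the 8 arrays alone, 1 without D10-L1 or D10-S1 and 3 without V9wk-L1 or V9wk-L2. The average call of Kdr was kept without each of the 8 arrays.

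The difference between the stage effects of mature luminal and stem cells was tested for every gene. It passed for 2 of 15378 genes (0.013%), both with the higher effect in mature luminal cells, and 1866 genes had an unadjusted p under 0.05. Esm1, a secreted proteoglycan best known from endothelial cells, stood at 8.91 and 7.32 on D10 mature luminal arrays, against 4.38 and 3.76 on V9wk ones. On stem arrays it ran the other way, at 7.12 and 5.75 at D10 and 10.02 and 10.26 in V9wk. Neither cell type overlapped between stages, and the effects of 4.04 and -3.70 differed by 7.75 ± 0.72 (adjusted p = 0.00143). The imprinted growth inhibitor Grb10 stood at 11.36 and 10.59 on D10 mature luminal arrays and at 10.49 and 9.30 on V9wk ones. On stem arrays it stood at 8.99 and 8.64 at D10 and at 11.08 and 10.59 in V9wk. The difference of its effects was 3.10 ± 0.42 (adjusted p = 0.0462), and it was 1.03 (adjusted p = 0.537) when all its probe sets were averaged. The next gene by p in that direction was Flt4, a lymphatic VEGF receptor (4.89 ± 0.75). In the other direction the 3 smallest p were those of Inf2 (-3.25 ± 0.50), Wnt5a (-4.02 ± 0.65) and Gpr155 (-4.51 ± 0.76). Flt4 and these 3 had an adjusted p of 0.0777 by limma's test. Stard4 had the same adjusted p, with effects of 3.43 in mature luminal and -1.53 in stem cells that differed by 4.96. The count of 2 was 1 without D10-L1, D10-S1, V9wk-L2 or V9wk-S2, 5 without D10-L2, 7 without V9wk-S1, 13 without V9wk-L1 and 18 without D10-S2. The call of Grb10 was lost without D10-L1, D10-L2, D10-S1, V9wk-L2 or V9wk-S2, and that of Esm1 was kept without each array. Without the replicate term 0 genes passed (875 at an unadjusted p under 0.05), and Esm1 was at an adjusted p of 0.0751. On the 8 arrays alone and from the matched differences alone 0 genes passed as well (1309 and 2224 at an unadjusted p under 0.05).

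**Figure D4:**
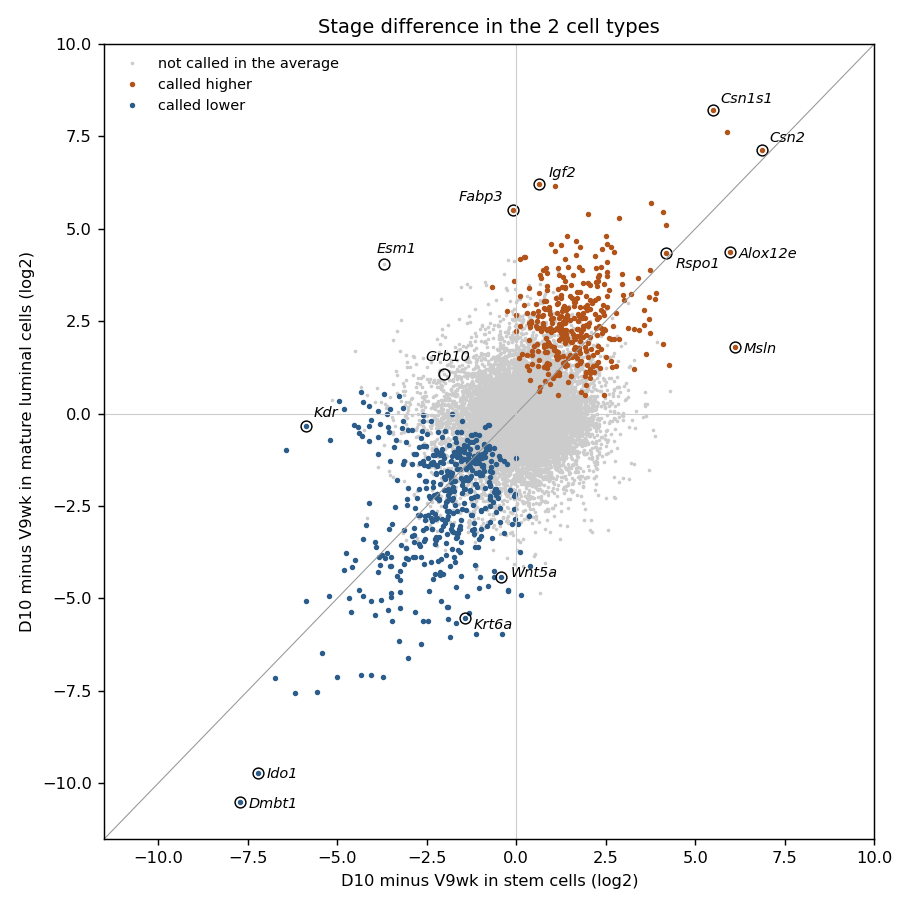
D10 minus V9wk difference in stem cells (horizontal axis) against that in mature luminal cells (vertical axis), both in log2 units, for the 15378 genes tested, with genes that passed in the average coloured by direction and the diagonal drawn as a line. Ido1 and Dmbt1 lie at the lower left, the caseins at the upper right, and Esm1 lies at -3.70 in stem and 4.04 in mature luminal cells.

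Luminal progenitor arrays were not used in the matched differences, since the D10 one carries no replicate number. On 1 D10 and 2 V9wk progenitor arrays, 75.1% of the 346 genes that rose lay above both V9wk arrays at D10, against 44.7% of all genes tested. Of the 452 genes that fell 69.2% lay below both, against 28.8% of all genes. Of the 24 genes with the widest differences named above, the 12 that rose lay above and the 12 that fell below both V9wk arrays. Ido1 stood at 3.09 on the D10 progenitor array, against 12.21 and 10.64 on the V9wk ones, and Alox12e at 8.69 against 2.92 and 3.48. Wap stood at 12.74 on the D10 progenitor array, against 2.98 and 4.35 in V9wk. That D10 level was above the 7.24 and 7.32 of D10 mature luminal arrays. The D10 progenitor array also had fibroblast markers at 9.86, against 6.68 and 6.84 in V9wk, and leukocyte markers at 8.53, against 4.57 and 6.63. Basal markers stood at 9.92 on it, against 8.61 and 7.43 in V9wk. With 1 D10 array these values have no replicate check, and no test was made.

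Later stages had 1 array per cell type and share the V9wk arrays, so their levels are given as a description. In mature luminal cells Csn2 stood at 3.28 and 9.39 in V9wk, 13.25 and 13.71 at D10, 13.95 at day 16 and 13.81 at day 19. Wap stood at 3.74 and 6.21, then 7.24 and 7.32, 13.14 and 13.57 over the same stages, and Fabp3 at 4.05 and 4.45, then 8.56 and 10.93, 13.70 and 14.02. From D10 on Csn2 stood near the highest values of the arrays, which lay between 14.09 and 14.24 at D10, so a further change could be hidden there. Wap and Fabp3 were lower on D10 arrays than at days 16 and 19. Mki67 stood at 10.21 at day 16 and at 6.79 at day 19, below its V9wk levels of 6.98 and 7.09. Ido1 stood at 1.79 and 2.82 and Dmbt1 at 1.76 and 4.84 at days 16 and 19 in mature luminal cells. In retired breeders Ido1 stood at 10.69 on the stem, 11.25 on the progenitor and 13.05 on the mature luminal array, and Dmbt1 at 10.52, 10.67 and 11.53. Both genes were thus low on the pregnancy arrays and high on 9-week virgin and retired breeder ones. Alox12e stood at 7.80, 7.11 and 7.91 on the same 3 retired breeder arrays, between its V9wk and D10 levels.

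**Figure D5:**
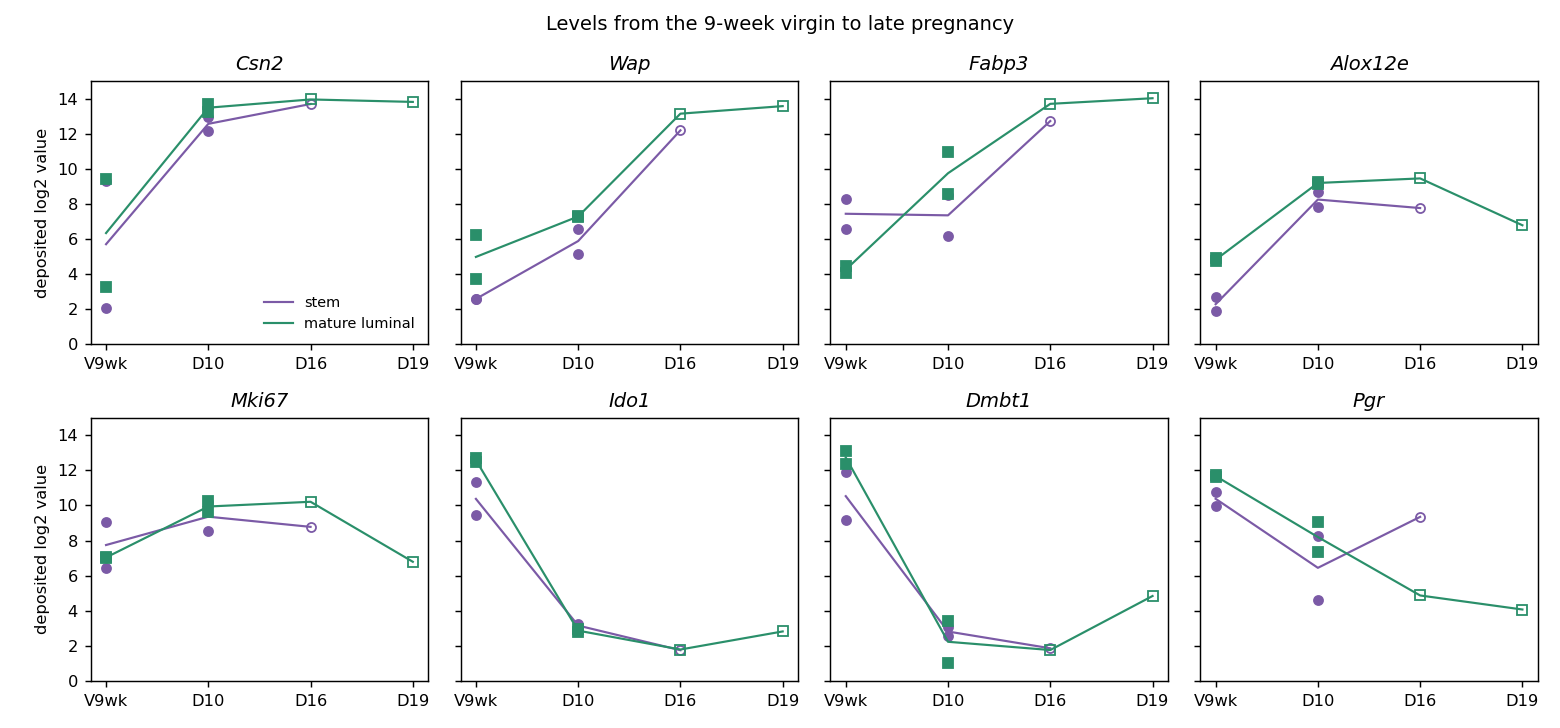
Deposited log2 values (vertical axis) of 8 genes at V9wk, D10, D16 and D19 in stem cells (circles) and mature luminal cells (squares), with filled symbols for groups of 2 arrays, open symbols for stages with 1 array and lines through the group means. Csn2 lies at 13.25 and 13.71 on D10 mature luminal arrays, Wap reaches 13.14 at D16 in mature luminal cells, and Ido1 and Dmbt1 stay below 5 at all pregnancy stages shown.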

How the data were processed

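Labelled RNA of purified mammary cells was hybridised to Affymetrix 3′ arrays, per the labels' protocols. The values are the authors' deposited log2 expression values per probe set. That they are log2 was read from their range, and the software, summary method and normalization are not given in the sources used here. Of 45101 probe sets 34945 carried 1 gene symbol, and each of 18193 genes was read from the probe set that was brightest on average across the 23 arrays. Genes above the array's 40th percentile on at least 2 arrays were kept (15378).

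The fit used limma 3.58.1 in R 4.3.3 on the 14 numbered arrays in 7 groups, with group means, a replicate-number term and an intensity trend in the prior variance (6 residual and 6.75 prior degrees of freedom), and Benjamini-Hochberg adjustment over all genes. The number was a block because the comparison is defined by matching on it. Deviations of same-numbered arrays correlated between groups in all 21 pairs of groups, from 0.303 to 0.682. Settings that were varied were the term, the arrays, normalization, filter, low values, probe set choice and trend. No array of the 8 duplicated another, with at least 98.5% of probe sets differing between any 2 arrays. The number of arrays limits the precision. The pipeline was run on data simulated from the same model with independent noise. Such a run cannot check the replicate term, the assumption of equal spread or values near background. Plots and tables were made with Python 3.11.15, pandas 2.3.3 and matplotlib 3.10.9.

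Named genes were the 12 farthest in each direction among those that passed with 4 differences of 1 sign, the members of each list that passed or had the 4 smallest p, a short set of mammary genes, and the 3 genes with the smallest p in each direction for the difference between cell types. Csn1s2b, Glycam1, Ltf, Btn1a1, Saa1, Lcn2, S100a8, Pigr, Ptgs2, Tek, Cited1, Gata3, Stard4, Cav1 and Tgfb2 were added after their values were seen. The members and lists were chosen with earlier results of these data known. Of 514 distinct list genes 473 were kept, 34 had no named probe set and were not analysed here, and 7 were under the filter.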

Additional observations from a re-analysis of the deposited data

Results flagged for a closer look

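For Esm1 and Grb10 the effect of day 10 of pregnancy differed between mature luminal and stem cells in a test of that difference. For Esm1 the effect in mature luminal cells minus that in stem cells was 7.75 ± 0.72 log2 units (limma adjusted p = 0.00143), with both mature luminal differences above 0 and both stem differences below 0. For Grb10 it was 3.10 ± 0.42 (adjusted p = 0.0462), with the same pattern of signs. Neither call was kept without the replicate term, on the 8 arrays alone or from the matched differences. That of Grb10 was also lost with all its probe sets averaged and without D10-L1, D10-L2, D10-S1, V9wk-L2 or V9wk-S2. Endothelial markers, a cell type in which Esm1 is known to be expressed, averaged 6.35 and 6.59 on D10 stem arrays and 9.71 and 9.20 on V9wk stem arrays. On mature luminal arrays they averaged 5.14 and 6.55 at D10 and 6.20 and 5.99 in V9wk. Their part in either result was not tested.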

How the results depend on the processing

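Without the replicate-number block 161 genes passed in the average, 10 in stem cells, 73 in mature luminal cells and 0 in the difference between cell types, where 875 had an unadjusted p under 0.05. With the block and only the 8 arrays the counts were 324, 13, 191 and 0 (1309 unadjusted), and from the matched differences alone 239, 3, 276 and 0 (2224 unadjusted). Without the intensity trend they were 472, 24, 274 and 1. Arrays titled replicate 1 gave 318 in the average and replicate 2 gave 32. The mean of all probe sets gave 90 in stem cells, and quantile normalization or a common array median gave 1 for the difference between cell types. A common median shifted the stem median from 0.14 to 0.28 and that of the cell type difference from -0.19 to -0.33. Once values below an array's median were set to it, 36.5% of the stem calls were higher at D10, against 16.2% as reported. Leaving out 1 array gave 341 to 928 in the average, 15 to 656 in stem cells, 113 to 799 in mature luminal cells and 1 to 18 for the difference. The cause of these shifts was not tested beyond the smaller number of arrays in some. None of these settings turned the direction of a named gene that passed, while 17 of 82 named genes that did not pass changed sign in at least 1 of them, and 37 of the 96 named calls were kept without the block. Values under the array median limit the size of the widest differences, since log2 differences there depend on background.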
